A study of Mus musculus with 42 samples.

Results

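Input RNA, the total RNA of liver taken before ribosome immunoprecipitation, was read with 2 poly(A) library kits, and the comparison asks which liver genes the NEB kit lost or inflated against the TruSeq kit. The libraries were chosen by protocol and fraction and number 6 of the 42 of the series, with 3 of NEB (NEBNext Ultra Directional) and 3 of Tru4 (TruSeq RNA v2 with 4 ng). The study's methods give the same amount of RNA and the same number of amplification cycles for both, with a size selection in NEB only. In each kit the libraries are those labelled input replicates 1 and 2 and the library labelled IP replicate 3, which is called library 3 here. The mice were untreated and of genotype Gfi1Cre/+;Rpl22HA/HA, in which Cre made from the Gfi1 locus switches on an HA tag on the ribosomal protein Rpl22, and every group carried both alleles. Libraries of one number come from one mouse in both kits. The labels give the age both as P30 and as P1 pups, while the study's methods speak of mice of the older age. Input libraries of TruSeq with 70 ng (Tru70) and of SMART-Seq v4 with 4 ng (SMTseq4), 3 each, serve as a further reference.

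The third library was taken as input after the study's own listing of the libraries, and this was checked against cell type markers. Clec4f, a receptor of Kupffer cells (the resident macrophages of the liver), stood at 156 CPM (counts per 1000000 counts of a library) in the library labelled NEB IP 3 and at 8131 CPM in the one labelled NEB input 3. In Tru4 the same labels gave 154 and 8193 CPM. Input libraries 1 and 2 of both kits held 122 to 153 CPM. The 12 hepatocyte markers summed to 129592 to 182867 CPM in the 6 libraries used, so the defining markers of liver were present. Exon counts totalled 22305929 to 26292017 in NEB and 31299550 to 45466334 in Tru4.

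Hepatocytes make most of the messenger RNA of the liver, and the genes of a few secreted plasma proteins take up a large share of every library. Where little RNA is amplified many times, a rare transcript may start from few or no molecules, and its read count then varies between libraries. Exon counting adds a further layer. Reads from exons that overlap on opposite DNA strands can be assigned only where the strand is known, and reads that fit several near-identical genes are usually left out.

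The sequences below show those cases. The first pairs are genes that lie on opposite strands of the same bases, and the last pair are alpha-globin genes. In each opposite-strand pair at least 1 gene stands among the largest differences between kits. The capital letter marks the 1 base that differs between the coding sequences of the globins, 429 bases each. Sequences are from GENCODE transcripts on GRCm38.
Gm42418 (chr17:39847565-39847594, plus strand): ggaagggcaccaccaggagtggagcctgcg
CT010467.1 (chr17:39847565-39847594, minus strand): cgcaggctccactcctggtggtgcccttcc
Gnas (chr2:174345396-174345425, plus strand, coding): ggcggccagcgcgatgagcgccgcaagtgg
Gm20721 (chr2:174345396-174345425, minus strand): ccacttgcggcgctcatcgcgctggccgcc
Ilk (chr7:105740653-105740682, plus strand, coding): cgagcacggaaccatcaatccattctgtca
Taf10 (chr7:105740653-105740682, minus strand): tgacagaatggattgatggttccgtgctcg
Hba-a1 (chr11:32284328-32284357, plus strand, coding): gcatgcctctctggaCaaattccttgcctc
Hba-a2 (chr11:32297145-32297174, plus strand, coding): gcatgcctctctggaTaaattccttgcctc

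NEB detected fewer genes. With at least 1 read, 13543, 12464 and 11419 genes were found in NEB libraries 1 to 3 and 19906, 19863 and 19631 in Tru4, and the kits did not overlap. The difference of the means was −7325 genes (two-sided exact permutation test, p = 0.1, the smallest that 3 against 3 libraries allow). It was −6792 genes after thinning to one depth. Thinning equalised the counted reads and not the distinct molecules, and the study reports more duplicate reads in NEB input than in Tru4 input. Protein-coding genes numbered 10857 ± 813 in NEB and 14531 ± 82.6 in Tru4, and other genes 1618 ± 261 and 5269 ± 74.5 (SD, n = 3). At a level of at least 1 CPM the kits were closer, with 11358 ± 859 and 12902 ± 18.5 genes.

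The loss followed the level of the gene. Of 2130 genes at 1 to 3 CPM in Tru4, 81.6% had no read in at least 1 NEB library and 339 had none in all 3. The share was 38.4% of 3119 genes at 3 to 10 CPM, 4.78% of 3851 genes at 10 to 30 CPM and 0.229% of 2618 genes at 30 to 100 CPM. Tru4 set these classes, which keeps its own zeros few, so the classes were also drawn from Tru70. There 1171 of 3093 genes at 3 to 10 CPM had no read in at least 1 NEB library, and 0 had none in a Tru4 library. A count of 0 allows up to 0.128 CPM in NEB and 0.0822 CPM in Tru4 (3 counts per library, mean of 3 libraries, counting error only). Throughout, reads of a gene are those assigned to it in the exon counts, so a gene without reads may still have had aligned reads.

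NEB libraries also scattered more. At 3 to 10 CPM in Tru4 the median SD of log2(CPM + 1) over 3 libraries was 1.11 in NEB, 0.20 in Tru4, 0.36 in Tru70 and 0.21 in SMTseq4. NEB and Tru4 drew closer with rising level, with 0.62 and 0.16 at 10 to 30 CPM and 0.20 and 0.17 from 1000 CPM. The biological coefficient of variation that edgeR fitted to each kit alone was 1.20 in NEB and 0.208 in Tru4. Spearman's rho across 12772 genes was 0.824 to 0.876 between NEB libraries and 0.977 to 0.985 between Tru4 libraries, a description over genes that are not independent.

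**Figure D1:**
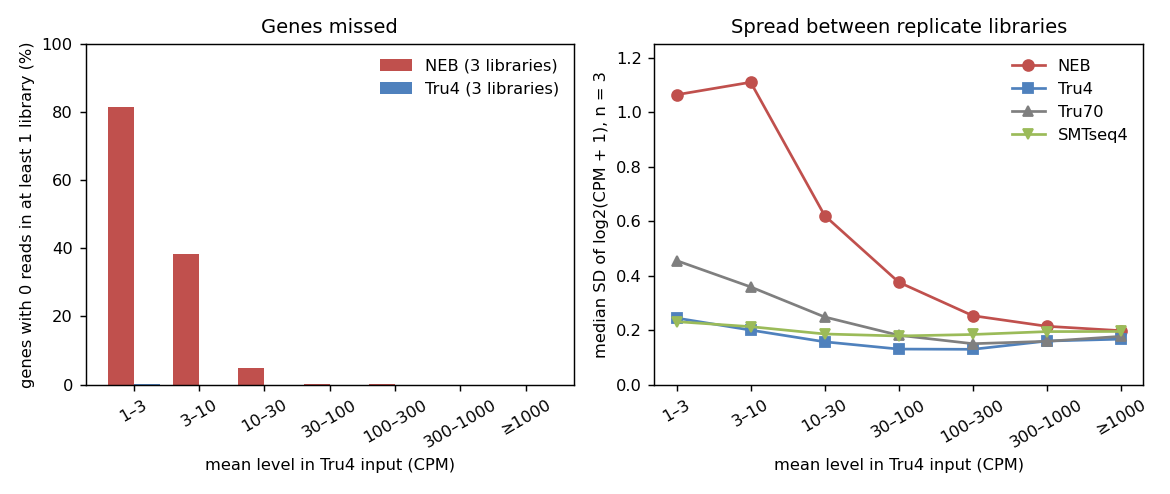
Left, the percent of genes with 0 reads in at least 1 of the 3 input libraries, and right, the median SD of log2(CPM + 1) over 3 libraries, both by class of mean CPM in Tru4. NEB lacks reads for 81.6% of genes at 1 to 3 CPM and for 0.229% at 30 to 100 CPM, and its median SD falls from 1.06 in the lowest class to 0.20 in the highest.

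Single genes show the scatter. Gpr108, an orphan receptor gene, had 36.5, 21.8 and 0 CPM in NEB and 22.5, 20.6 and 22.4 CPM in Tru4. Dyrk2, a protein kinase, had 46.0, 29.6 and 0.223 CPM in NEB and 21.9, 19.5 and 11.2 CPM in Tru4. Cdkn2aipnl had 22.4, 50.3 and 0.0894 CPM against 12.8, 13.3 and 13.7 CPM. In each, NEB library 3 held next to nothing while NEB libraries 1 and 2 lay near or above Tru4. With Mup-ps22, a pseudogene of the major urinary proteins, and Selenbp2, for a selenium-binding protein, these are the 5 genes with the widest NEB range by the naming rule, and none passed the test between kits.

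Markers of rare liver cells stood mostly at low levels, where 81.6% of all genes at 1 to 3 CPM in Tru4 had no read in at least 1 NEB library, and nothing particular to these cells was tested. Reads were lacking in at least 1 NEB library for 5 of 5 tested T and NK cell markers, 4 of 5 cholangiocyte markers and 4 of 5 B cell markers, and for none of them in Tru4. The lists hold 8, 6 and 6 genes. A marker with few NEB reads entered the tested set largely through its Tru4 counts. The lack of zeros in Tru4 therefore follows in part from the filter. Krt19, a keratin of bile duct cells, had no counted read in NEB and 0.831, 1.63 and 0.961 CPM in Tru4. Lck, a kinase of T cell receptor signalling, had 3.54, 0 and 0 CPM in NEB and 0.575, 0.484 and 0.99 CPM in Tru4. Lck thus lay above Tru4 in 1 NEB library and had no read in the others.

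Markers of Kupffer and sinusoidal endothelial cells gave no calls. Kupffer markers summed to 598 to 687 CPM in NEB and 645 to 656 CPM in Tru4, and sinusoidal endothelial markers to 313 to 368 and 291 to 325 CPM. None of the 13 and 10 genes passed the test. In bulk samples fewer cells of a type and less RNA per cell cannot be told apart, but here both kits were given aliquots of the same RNA.

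In the edgeR quasi-likelihood test of 14210 genes, 1095 were lower in NEB (7.71%) and 193 higher (1.36%) at an adjusted p under 0.05. Of those lower, 933 had a mean under 3 CPM over the 6 libraries. Of 1390 genes with a mean under 1 CPM, 773 were lower and 0 higher. A gene with few NEB reads entered the test largely through its Tru4 counts, so the tested set favours lower calls at low levels. The share of 7.71% set beside the lists below carries this limit. The calls also depended on the settings. With a term for the mouse (replicate block), 100 genes were lower (0.704%) and 87 higher (0.612%), and with genes of at least 1 CPM in 3 libraries alone, 62 and 85. Leaving out 1 Tru4 library left 5 to 8 lower and 21 to 25 higher, while leaving out 1 NEB library gave 1827 to 2653 lower. Without library 3 of both kits 0 genes were lower and 1 higher, and with the fractions as labelled 0 and 5.

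Genes are therefore described at a mean of at least 10 CPM, a limit set after the data were seen. There 133 of 7795 genes were lower in NEB (1.71%) and 170 higher (2.18%), and in all of them the libraries of the kits did not overlap, which held in the same directions for 8.38% and 15.4% of the 7795 genes and for 16.4% and 10.5% of all 14210 genes tested. With the replicate block 97 were lower (1.24%) and 85 higher (1.09%), and 68 and 78 were called in both fits. The median difference over the 7795 genes was −0.01 on the log2 scale.

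Neighbours and copies divided the genes that differed. Of 2176 genes whose exons overlap a gene on the opposite strand, 129 were higher in NEB and 13 lower. Of 758 further genes sharing at least 10% of their 40-base stretches with another gene, 17 were higher and 74 lower. Of the 4861 remaining genes 24 were higher and 46 lower. The sharing was measured between longest transcripts, which can miss copies.

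**Figure D2:**
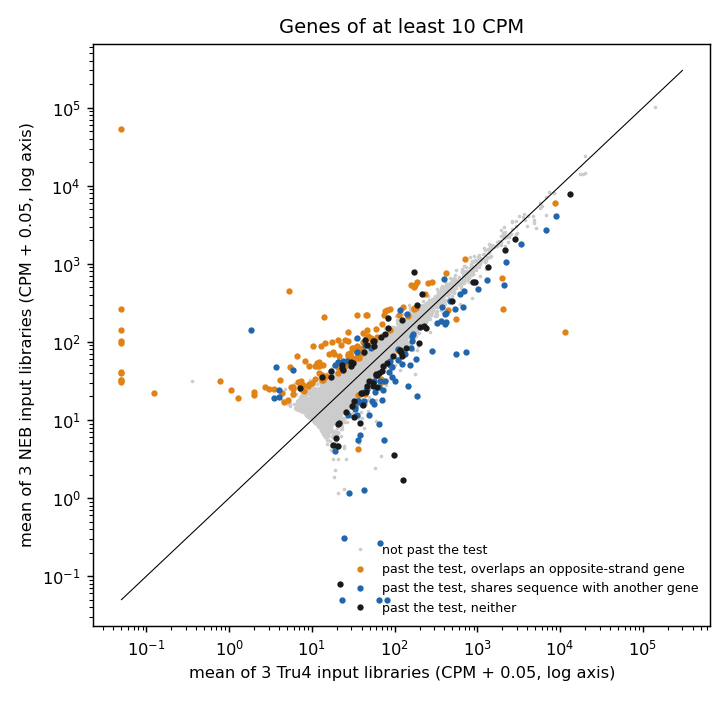
Each point is a gene of at least 10 CPM by its mean over 3 Tru4 (x) and 3 NEB (y) input libraries, in CPM + 0.05 on log axes, and coloured points passed the edgeR test. Genes with an opposite-strand neighbour (129 higher, 13 lower) lie mostly above the line of equality, and genes that share sequence (17 higher, 74 lower) mostly below it.

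The deposited RPKM values (reads scaled by gene length and library size) of the same libraries often differed from the counts. In the 170 genes higher by counts the median log2 ratio of NEB to Tru4 was 1.43 by counts and 0.27 by RPKM, and 30 had the opposite sign by RPKM. In the 133 lower genes it was −1.18 and 0.03, and 66 had the opposite sign. Of 19 genes with 0 counts in all NEB libraries and at least 5 CPM in Tru4, all 19 had a mean NEB RPKM above 0. A limma fit of log2(RPKM + 0.1) on 9549 genes called 296 lower in NEB (3.1%) and 440 higher (4.61%). Among genes of at least 10 CPM it called 0.627% of 5585 lower and 2.38% higher. It called 20 of the 170 higher and 0 lower, and of the 133 it called 21 lower and 15 higher. Reads placed where annotated genes overlap (ambiguous) made up 3.38 to 3.57% in NEB and 7.39 to 9.87% in Tru4. The base of these shares is counted, ambiguous and no-feature reads. Alignments that fit several places are a separate class outside these shares. They numbered 11087936 to 16964933 in NEB and 11096497 to 13067983 in Tru4. The strand setting of the counting is not given in the sources used here, and its part in these differences was not tested. The study states that among its kits SMARTer alone gave strand-specific libraries, although the NEB kit is named Directional.

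**Figure D3:**
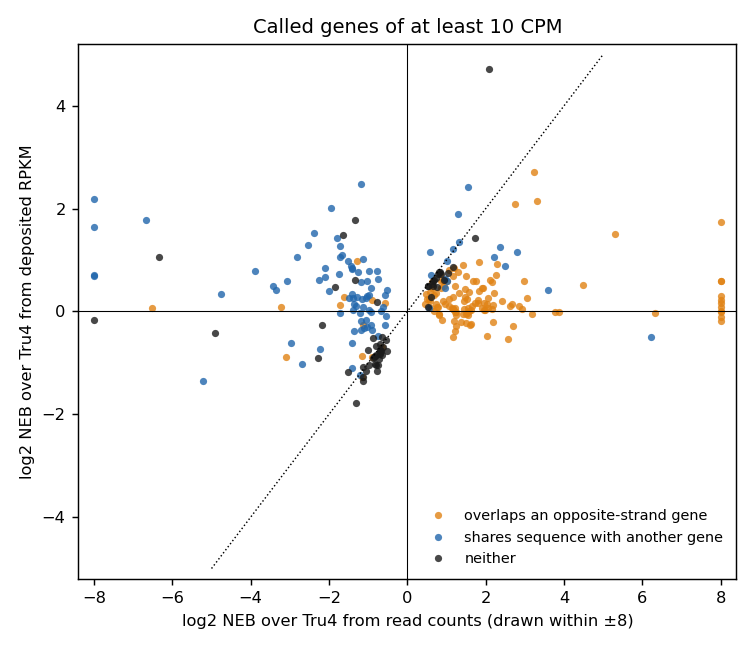
The log2 ratio of NEB to Tru4 by exon counts (x, drawn within 8 either way) against that by deposited RPKM (y) for genes of at least 10 CPM that passed the edgeR test, coloured by overlap or shared sequence, with a dotted line of equality. Genes higher in NEB by counts have a median of 1.43 on the x axis and 0.27 on the y axis, and genes lower by counts have −1.18 and 0.03.

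The largest rises belonged to genes with an opposite-strand neighbour. Gnas encodes the alpha subunit of the stimulatory G protein. It had 418, 402 and 525 CPM in NEB and 4.95, 4.60 and 5.99 CPM in Tru4, so that NEB was 86.5-fold higher (log2 6.32 ± 0.21 SE, edgeR adjusted p = 0.00034). By RPKM the kits overlapped and differed by −0.03 (limma adjusted p = 0.96). Its partner Gm20721 had 15.7, 15.5 and 5.27 CPM in NEB and 0.0319, 0 and 0 CPM in Tru4, and lost its call with the block (adjusted p = 0.057).

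Ilk, for integrin-linked kinase, had 27.3, 28.98 and 34.7 CPM in NEB and no counted read in Tru4. It was at least 369-fold higher in NEB against the floor of 3 counts per library (edgeR adjusted p = 0.007). Its RPKM of 3.52, 3.44 and 4.45 in NEB overlapped the 3.91, 3.88 and 3.64 of Tru4. The partner Taf10, a subunit of the general transcription factor TFIID, had 22.9, 29.3 and 2.28 CPM in NEB and 13.5, 15.02 and 11.8 CPM in Tru4. In all, 13 genes of at least 10 CPM in NEB had no counted read in Tru4, and all 13 have an opposite-strand overlap.

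The chromosome 17 pair took opposite sides. Gm42418 had 74536, 44371 and 42512 CPM in NEB and no counted read in Tru4. CT010467.1, annotated as ribosomal RNA on the other strand, had 129, 144 and 131 CPM in NEB and 15988, 7579 and 10400 CPM in Tru4. By RPKM the log2 differences were 0.15 and 0.07, neither past the limma test.

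Acadvl, Bckdha and Apoa4, chosen after their values were seen, also have such neighbours. In the plasma protein and lipid lists 8 and 6 tested genes have one too, and 0 genes of either list were higher. Acadvl starts the mitochondrial oxidation of very long fatty acids. It had 478, 617 and 532 CPM in NEB and 171, 191 and 160 CPM in Tru4 (log2 1.53 ± 0.13 SE, edgeR adjusted p = 0.0061), with an RPKM difference of 0.25. Bckdha, a subunit of branched-chain ketoacid dehydrogenase, had 222, 241 and 209 CPM against 41.9, 52.5 and 41.2 CPM, and Apoa4, an apolipoprotein, 472, 494 and 647 CPM against 149.1, 143 and 182 CPM. Their RPKM differences of −0.20 and 0.11 did not pass the test. For Acadvl, Bckdha and Apoa4 all NEB libraries lay above all Tru4 libraries by counts.

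Among 21 tested transcription factors of the liver 3 were higher in NEB and 0 lower (median 0.04), and with the replicate block 2 and 0. The share higher was 1.36% of all genes tested and 2.18% at a mean of at least 10 CPM. Nr1i3, the constitutive androstane receptor that governs drug metabolism genes, had 99.7, 106 and 61.2 CPM in NEB and 12.5, 15.4 and 10.2 CPM in Tru4 (log2 2.7 ± 0.27 SE, edgeR adjusted p = 0.012), and −0.28 by RPKM. Cebpb rose by 1.83 on the log2 scale. Ppara, which controls fatty acid oxidation, rose by 0.54 and lost its call with the block (adjusted p = 0.26). Rxra, the partner of many nuclear receptors, had 521, 398.5 and 511 CPM in NEB and 471, 436 and 379 CPM in Tru4, and these overlap.

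Of the globin genes, which have near copies, Hba-a2, Hbb-bs and Hbb-bt were lower by counts. Hba-a2 had 86.3, 82.3 and 43.8 CPM in NEB and 627, 529 and 502 CPM in Tru4 (log2 −3.08 ± 0.28 SE, edgeR adjusted p = 0.0076). Its RPKM was 1824, 1559 and 1223 in NEB and 1087, 987 and 959 in Tru4, so the order of the kits was the opposite. Hbb-bs and Hbb-bt fell by 1.41 and 1.18 on the log2 scale by counts, and by RPKM they were 0.85 and 2.47 higher, both past the limma test. Hba-a1 had 142, 131 and 87.7 CPM in NEB and 175, 157 and 160 CPM in Tru4 (log2 −0.57 ± 0.19 SE, edgeR adjusted p = 0.19), which did not pass, and was 1.21 higher by RPKM (limma adjusted p = 0.013). The erythroid list had 4 of 6 tested genes lower and 0 higher, with sums of 369 to 689 CPM in NEB and 1346 to 1718 CPM in Tru4. With the replicate block 3 were lower. The shares lower were 7.71% of all genes tested and 0.704% with the block.

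Genes of the cytosolic ribosome went both ways by counts. Of 76 tested, 15 were lower and 8 higher in NEB, and with the replicate block 7 and 3. The shares of all genes tested were 7.71% and 1.36%, and 0.704% and 0.612% with the block. At a mean of at least 10 CPM they were 1.71% and 2.18%, and 1.24% and 1.09% with the block. Among all 2150 tested genes that share sequence, 16.6% were lower and 1.81% higher. The median of the ribosomal list was −0.38 by counts and 1.04 by RPKM, where 36 were higher and 0 lower. By RPKM 4.61% of the 9549 genes of that fit were higher and 3.1% lower. Of 1770 genes that share sequence and have an RPKM fit, 193 were higher and 17 lower. Rplp0 had 38.0, 63.1 and 51.6 CPM in NEB and 138, 171 and 152 CPM in Tru4, and was 1.07 higher by RPKM. Rps6 had 47.0, 52.1 and 42.6 CPM in NEB and 3.32, 3.83 and 3.70 CPM in Tru4 (log2 3.59 ± 0.22 SE, edgeR adjusted p = 0.0018). Of the 76 genes, 64 share sequence with another gene.

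**Figure D4:**
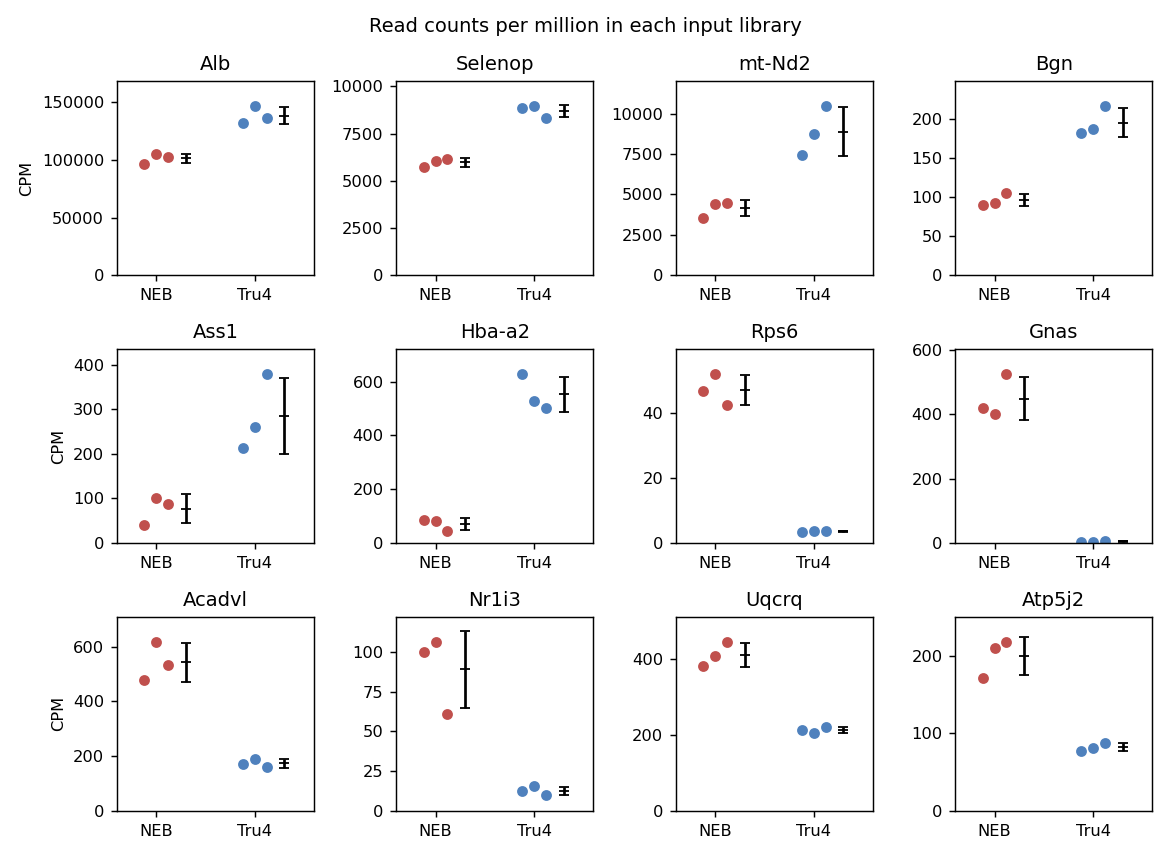
CPM (linear axes from 0) in each of the 3 NEB and 3 Tru4 input libraries for 12 genes chosen after their values were seen, with bars for mean ± SD. Rps6, Gnas, Acadvl and Nr1i3 lie higher in all NEB libraries, and Hba-a2, Ass1, mt-Nd2 and Bgn lie lower.

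Of 38 plasma protein genes 4 were lower and 0 higher (median −0.09 by counts and −0.06 by RPKM), and 8 were lower with the replicate block. The share of all genes tested was 7.71%, mostly genes of low level, and 0.704% with the block. At a mean of at least 10 CPM the shares were 1.71% and 1.24%. Counts for the lists take members of all levels. Of the 4 lower genes, Serpina1a, Serpina1c and Serpina1d are near copies that encode alpha-1-antitrypsins, and Apoc1 is an apolipoprotein. Serpina1a had 546, 669 and 378 CPM in NEB and 2555, 2196 and 1531 CPM in Tru4, with an RPKM difference of 0.67. Albumin (Alb) had 96469, 104760 and 102515 CPM in NEB and 131988, 146382 and 136326 CPM in Tru4. All NEB libraries were below all Tru4 libraries, with log2 −0.56 ± 0.24 SE, which did not pass the edgeR test (adjusted p = 0.31) and passed it with the block (adjusted p = 0.00037).

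Of the metabolic lists, drug metabolism had 4 of 24 lower (Cyp2a5, Cyp2d10, Cyp4a10 and Gstm1, median of the list −0.31) and 7 with the block. The shares are the same 7.71% and 0.704% of all genes tested, and 1.71% and 1.24% at a mean of at least 10 CPM. In the urea cycle and amino acid list 1 of 21 was lower, Ass1, which makes argininosuccinate, with 40.6, 102 and 88.1 CPM in NEB and 212, 261 and 379 CPM in Tru4. It shares sequence with other genes and was 0.39 higher by RPKM. None of 14 glucose genes and 28 lipid, cholesterol and bile genes passed without the block (medians 0.06 and −0.01). With the block 1 glucose gene was higher and 1 lipid gene, Scd1, lower. In the urea cycle and amino acid list 1 was lower and 2 higher with the block. Cps1, the first enzyme of the urea cycle, had 1499, 1869 and 2252 CPM in NEB and 1385, 1928 and 2149 CPM in Tru4.

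Some genes differed in both units. Selenop, the plasma carrier of selenium, had 5707, 6063 and 6152 CPM in NEB and 8832, 8936 and 8336 CPM in Tru4 (log2 −0.66 ± 0.13 SE, edgeR adjusted p = 0.028), and −0.69 by RPKM. Hrg, a plasma glycoprotein, fell by 0.71 by counts and by 0.64 by RPKM. Bgn, a matrix proteoglycan, had 90.2, 92.7 and 105 CPM against 182, 187 and 216 CPM (log2 −1.14 ± 0.13 SE, edgeR adjusted p = 0.018), and −1.27 by RPKM. Col1a1, the collagen chain of stellate cells, fell by 1.14 and by 1.36, and lost its call by counts with the block (adjusted p = 0.072).

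Higher in both units were Cox4i1, Uqcrq and Atp5j2, nuclear genes of the respiratory chain. Uqcrq had 381, 408 and 446 CPM in NEB and 214, 205 and 221 CPM in Tru4 (log2 0.83 ± 0.11 SE, edgeR adjusted p = 0.023), and 0.77 by RPKM. Its Tru70 mean was 422 CPM, near that of NEB, and the edgeR fits gave −0.10 for NEB and −0.96 for Tru4 against Tru70. For Uqcrq the kit with 4 ng that stood apart from Tru70 was thus Tru4 (adjusted p = 0.016). Of 78 tested nuclear genes of the chain 7 were higher and 4 lower in NEB (median 0.10), and with the replicate block 5 and 1. The shares of all genes tested were 1.36% higher and 7.71% lower, and 0.612% and 0.704% with the block.

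Transcripts of mitochondrial DNA were lower in NEB. Of 7 tested genes 4 passed the test and 7 with the block, all lower (median −0.85 by counts and −0.88 by RPKM). The shares lower were 7.71% of all genes tested and 0.704% with the block. Sums over the list were 32068 to 41256 CPM in NEB and 54727 to 72936 CPM in Tru4. The complex I subunit mt-Nd2 had 3571, 4400 and 4494 CPM in NEB and 7449, 8768 and 10452 CPM in Tru4 (log2 −1.22 ± 0.19 SE, edgeR adjusted p = 0.023). Its Tru70 mean was 2757 CPM, and against Tru70 NEB differed by 0.52 (adjusted p = 0.14) and Tru4 by 1.72 (adjusted p = 0.005). The low value in NEB is therefore relative to Tru4, and the same holds for mt-Nd6, at −3.10 against Tru4 and −0.05 against Tru70. The ribosomal RNAs of the mitochondrion gave 0 of 2 calls (median 0.37).

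Among the reference genes B2m and Rplp0 were lower, and the median of the list was −0.15. Actb overlapped, with 444, 509 and 365 CPM in NEB and 477, 442 and 412 CPM in Tru4. Immediate early genes (11), giant cytoskeletal and scaffold genes (26) and B cell markers (5) had 0 calls. Of 10 nuclear and long noncoding RNAs Malat1 was higher by 0.91 and Snhg11 lower, and of 9 histone genes 1 was lower. Of the markers 1 of 12 hepatocyte, 1 of 10 stellate, 2 of 5 cholangiocyte, 2 of 5 T and NK cell and 1 of 1 neutrophil genes were lower. The last 3 lists hold 6, 8 and 9 genes. Their members with few NEB reads were tested largely because of their Tru4 counts, so these calls are no result about the cells. With the replicate block 3 hepatocyte genes were lower. In the noncoding RNA, histone, stellate, cholangiocyte, T and NK cell and neutrophil lists 0 genes were lower with the block. The shares of all genes tested were 7.71% and, with the block, 0.704%.

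**Figure D5:**
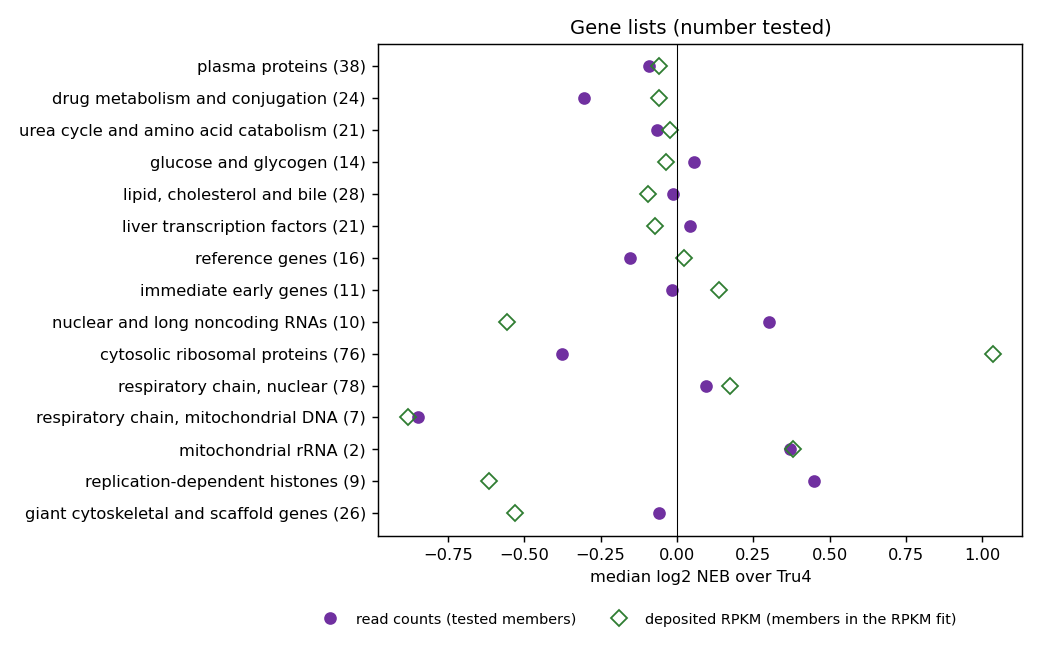
The median log2 ratio of NEB to Tru4 for each list of genes by function, by exon counts (filled) and by deposited RPKM (open), with the number tested in brackets. The ribosomal protein list lies at −0.38 by counts and 1.04 by RPKM, and the mitochondrial DNA list at −0.85 and −0.88.

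Against the other protocols, which share the same NEB and Tru4 libraries, the numbers of calls were as follows. NEB had 96 genes lower (0.711%) and 100 higher (0.74%) than Tru70, and Tru4 had 82 lower (0.547%) and 65 higher (0.434%). With the replicate block the order turned, at 278 lower and 162 higher for NEB and 1316 and 1020 for Tru4, and without the third libraries Tru4 had 1 and 10. Against SMTseq4, NEB had 1587 lower (11.6%) and 1005 higher (7.33%), and Tru4 3289 lower (22.0%) and 3667 higher (24.5%). Fewer calls do not show that a kit is closer, and the spread between NEB libraries was larger.

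The median difference was also taken by transcript length and GC content. The median log2 ratio was −0.66 for 537 genes with transcripts of up to 500 bases and −0.05 for 304 genes over 10000 bases, and −0.24 for 161 short genes of at least 10 CPM. By RPKM it was −0.20 for 1392 genes of up to 500 bases among those tested by RPKM. By counts it was −0.07 in the GC decile of lowest content and −0.17 in that of the highest, which had −0.32 by RPKM and −0.042 with the fractions as labelled.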

How the data were processed

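Per the study's methods, the authors trimmed reads, aligned them with TopHat to GRCm38 and counted them per gene. The deposited files hold exon read counts, not normalized, and RPKM computed by the authors. The strand setting is not given in the sources used here. Counts of 14210 genes were compared with edgeR (quasi-likelihood test, TMM factors, filterByExpr, Benjamini-Hochberg adjusted p under 0.05), and RPKM with limma on log2(RPKM + 0.1), whose fold changes understate low genes. CPM scales counts to the library total. The procedure was tested on simulated data. Libraries of one number share a mouse, and their deviations correlated (r = 0.369, 0.257 and 0.396 over 5652 genes). Values with a replicate block are therefore given for the counts of calls and for some of the genes whose call they change. P-values measure the spread between 3 libraries per kit. Members and lists were chosen with earlier results of these data known. Named genes were the most expressed of each list, the largest falls and rises, genes without reads in one kit and the widest NEB ranges, and other genes were chosen after their values were seen. Alternatives were other filters, normalizations, tools, units, labels and left-out libraries. A result on 1 further gene is not reported here.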

Additional observations from a re-analysis of the deposited data

How the results depend on the processing

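All settings below concern genes differing between NEB and Tru4 input by exon counts, with lower and higher in NEB given in that order, first for all genes tested (1095 and 193) and then at a mean of at least 10 CPM (133 and 170). Without a filter they were 63 and 76, then 48 and 69. With at least 1 CPM in 3 libraries they were 62 and 85, then 49 and 78. DESeq2 gave 866 and 393, then 229 and 312. Voom gave 1245 and 161, with 58 lower at 10 CPM. RPKM with limma gave 296 and 440, with 35 lower at 10 CPM. With the replicate block they were 100 and 87, then 97 and 85. With the fractions as labelled they were 0 and 5 both times, and without library 3 of both kits 0 and 1 both times. RPKM with the fractions as labelled gave 126 lower over all genes, then 0 and 25; this and the 10 CPM limit were chosen after seeing the data. Leaving out 1 library at a time gave 5 to 2653 lower and 21 to 374 higher over all genes, and 5 to 269 lower and 21 to 304 higher at 10 CPM, the low ends without a Tru4 library. The cause of these changes was not tested.

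Against Tru70, NEB gave 22 lower and 20 higher with fractions as labelled and 278 and 162 with the replicate block. Tru4 gave 0 and 0 as labelled, 1316 and 1020 with the block, and 1 and 10 without library 3. Against SMTseq4, NEB gave 690 and 640 as labelled, 855 lower with the block and 2604 lower without library 3, and Tru4 1296 and 1905 as labelled. The median SD over genes, 0.59 in NEB and 0.17 in Tru4, was 0.65 and 0.19 with a pseudocount of 0.1, 0.43 and 0.12 with 5, and 0.80 and 0.46 with fractions as labelled. Without 1 replicate it was 0.40 to 0.47 and 0.12 to 0.15. The highest GC decile had −0.042 as labelled, −0.32 by RPKM and −0.068 at 10 CPM. Transcripts up to 500 bases had −0.60 with all transcripts, −0.60 as labelled, −0.86 without library 3, −0.20 by RPKM and −0.24 at 10 CPM, and those over 10000 bases −0.29 with all transcripts.

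The sign of the difference was reversed by RPKM for the genes below, and several of the values lie near 0. Log2 values are given by RPKM and, after the slash where reversed there too, by RPKM with fractions as labelled. Of the listed genes only Hbb-bs, Hba-a1, Hbb-bt, Rpl11, Zbed5 and Rpl31-ps11 passed the limma test by RPKM. None passed it with fractions as labelled. With the replicate block Rpl4, Pnp2, Rpl19, Rpl11, Zbed5 and Gm20721 lost their edgeR call by counts. Lower by counts were Rpl4 0.094, Hbb-bs 0.85 / 0.75, Hba-a2 0.59 / 0.34, Hba-a1 1.21, Hbb-bt 2.47 / 2.51, Mup10 2.19 / 2.03, Cyp3a41b 1.65 / 1.40, Pnp2 0.74 / 0.97, C1rb 0.70, Rpl19 0.61 / 1.06, Rpl11 1.21 / 1.37, Zbed5 1.77 / 1.51, Cyp2a21-ps 0.71 / 0.41, Rpl31-ps11 1.23 / 1.02 and CT010467.1 0.072. Higher by counts were Ilk −0.012 / −0.24, Gm20721 −0.025 / −0.10, Gnas −0.028 / −0.10, Wdr89 −0.49 / −0.52 and Gm12481 −0.10, and with fractions as labelled alone Pdcd2 −0.10, Metrn −0.15, Gm15459 −0.069, Sephs2 −0.0057 and Hsp90b1 −0.035. Leaving out 1 library at a time gave −9.71 to 0.60 for Sox9 and −7.51 to 1.28 for Lck, lowest without NEB replicate 1, and −7.05 to 2.21 for Ms4a1, lowest without NEB replicate 3, where the NEB libraries left had no reads and the fitted value is no bound. The difference in detected genes was −7325 and, with the libraries thinned to one depth, −6792.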
